A study of Bos taurus with 7 samples.

Results

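The mitochondrial carrier family SLC25 was followed in the rumen epithelium of 7 Holstein calves, 3 given forage (HAY, calves 9, 10 and 13) and 4 not given forage (CON, calves 8, 11, 12 and 14). The series concerns forage and calf starter around weaning, and its design text names 3 weeks after weaning. Age, sex and the exact diets are not given in the sources used here. Each calf was measured on 1 single-colour Agilent array. The family was taken as every probe whose gene name on the array was SLC25A followed by a number, which gave 39 probes of 39 genes among 15008 probes. Of these, 37 passed the filter on dim probes, which required 3 or more of the 7 arrays to show a signal well above background, and entered a fit over 12570 genes. On all 7 arrays 36 of the 37 were well above background, and none was saturated.

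Carriers of this family are small proteins of the inner mitochondrial membrane, each built of 3 repeats of a pair of membrane helices. They exchange or import nucleotides, phosphate, di- and tricarboxylates, amino acids, acylcarnitines, cofactors and iron, and so connect the matrix with the cytosol. The rumen epithelium absorbs short-chain fatty acids made by the microbes and oxidises much of the butyrate to ketone bodies in its mitochondria. The roles given below are those known from human and mouse.

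The values are log2 signals with each array's 75th percentile set to 0. They compare calves for 1 probe and do not compare 1 gene with another. Probes well above background made up between 81.5 and 84.6% of the spots per array. The keratinocyte genes KRT5, KRT14, KRT15 and TP63 were well above background on all 7 arrays, as were the skeletal muscle genes ACTA1 and CKM, while MYH1, MYH2 and TNNT3 were so on none. Of the 10 keratinocyte genes 7 had higher values in HAY, and KRT4 differed by -2.32 without overlap. Several lists of markers of other cells of the rumen wall had lower values in HAY. All 8 tested smooth muscle genes, all 10 fibroblast genes, all 6 endothelial genes and 5 of 6 myeloid genes had lower values in HAY, with median log2 differences of -1.29, -1.55, -0.84 and -1.03. The log2 of the summed signal ran from 3.53 to 4.75 in HAY and from 4.82 to 6.01 in CON for smooth muscle, and from 4.02 to 6.20 in HAY and from 5.62 to 7.89 in CON for fibroblasts. It ran from -0.35 to 1.47 in HAY and from 0.99 to 1.86 in CON for endothelium, and from 2.44 to 2.63 in HAY and from 3.14 to 3.81 in CON for myeloid genes. Of the lymphoid genes 4 of 5 had higher values in HAY (median 0.33), of the adipocyte genes 1 of 2 and of the rumen epithelium metabolism genes 3 of 5 (median 0.08). Differences ran from -1.12 to 0.53 over the lymphoid, from -1.56 to 0.30 over the adipocyte and from -1.68 to 0.61 over the metabolism genes. For keratinocyte genes the summed signal ran from 9.02 to 9.29 in HAY and from 8.66 to 9.19 in CON. The part of these cells in the carrier results was not tested, and in whole tissue fewer cells of a type and less RNA per cell cannot be told apart. The HAY arrays lay in row 1 of the slide and the CON arrays in row 2, so the effect of the row and that of the feeding cannot be told apart.

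Each gene was read through a single 60-base probe. The probes of the 4 adenine nucleotide carriers are given first because these proteins are close relatives, and the probes of 2 of them overlap in sequence. Capitals mark the 15 bases that the probes of SLC25A4 and SLC25A31 share, the longest run shared by any of the 741 pairs of member probes, whose median was 6 bases.
SLC25A4: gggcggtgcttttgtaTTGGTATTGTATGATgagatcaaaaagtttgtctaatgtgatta
SLC25A31: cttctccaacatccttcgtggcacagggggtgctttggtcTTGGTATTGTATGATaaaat
SLC25A5: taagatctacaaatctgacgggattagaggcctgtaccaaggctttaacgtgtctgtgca
SLC25A6: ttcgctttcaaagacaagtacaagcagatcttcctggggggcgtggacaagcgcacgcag
On UMD_3.1, the build of the array design, the SLC25A4 probe lies at chr27:14549642-14549701 on the plus strand and that of SLC25A31 at chr17:30292099-30292158 on the minus strand. The SLC25A5 probe lies at chrX:3700039-3700098 on the plus strand and that of SLC25A6 on an unplaced scaffold. Whether the shared run lets 1 transcript bind the other's probe was not tested.

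The other probes shown belong to carriers with the smallest p-values between the feeding groups. They are given whole for SLC25A42, SLC25A28 and SLC25A30, and for SLC25A13, SLC25A36 and SLC25A23 by their first 30 bases, in lower case because no part is singled out.
SLC25A42: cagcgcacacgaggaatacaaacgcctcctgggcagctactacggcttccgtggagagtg
SLC25A28: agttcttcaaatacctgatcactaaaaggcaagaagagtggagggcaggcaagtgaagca
SLC25A30: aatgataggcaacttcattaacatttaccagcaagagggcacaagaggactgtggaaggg
SLC25A13: aattattcatagttattctttgggcctctt
SLC25A36: tgtatggcccttgtgaagatacttgctgta
SLC25A23: aaatgtccccaaactcccccttagcacact
These probes lie at chr7:4054953-4055347 (minus strand), chr26:20466151-20466210 (minus), chr12:15607764-15608491 (plus), chr4:13346024-13346083 (minus), chr1:129008411-129008470 (minus) and chr7:19258084-19258143 (plus) of UMD_3.1, in the order shown. The SLC25A42 and SLC25A30 probes span 395 and 728 bases of the genome, more than their own length, as do 5 other probes of the family. Exon and UTR annotation of this build was not used here.

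Of the 37 tested carriers, 26 had higher and 11 lower mean values in HAY than in CON. Their median log2 difference was 0.19, against 0.03 over all 12570 genes, of which 54.5% had a positive difference. No carrier passed the adjustment over all genes with limma, where 1 gene of 12570 did (0.00796%). At an unadjusted limma p under 0.05 stood 5 carriers with higher values in HAY (background 6.78%) and 2 with lower values (background 7.17%), and in either direction the background was 13.9%. The groups did not overlap in 3 carriers that were higher in HAY and 2 that were lower, where all genes gave 6.53% and 5.3%. The median SE of a carrier's difference was 0.18.

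**Figure D1:**
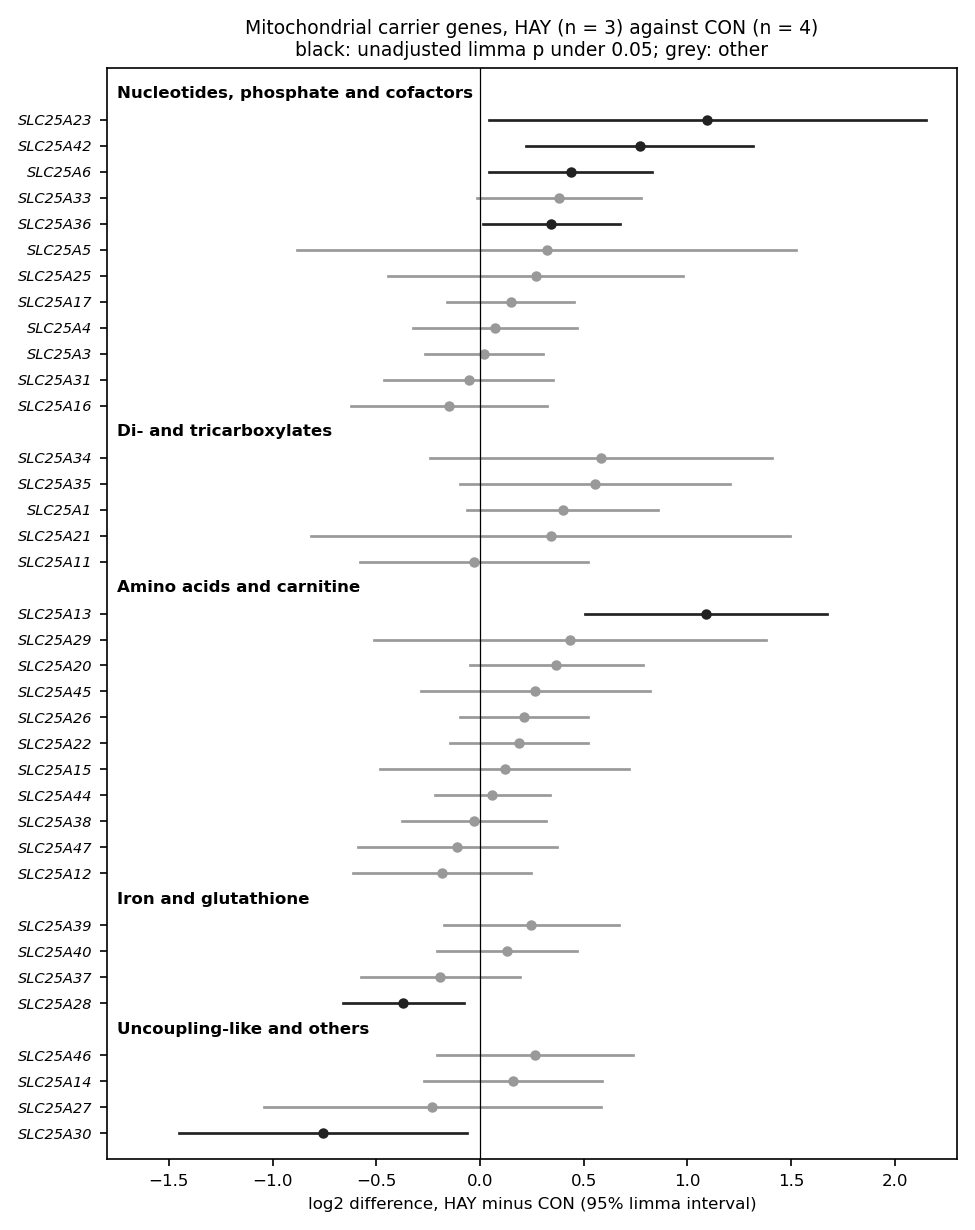
Log2 difference (HAY minus CON, horizontal axis) of 36 of the 37 tested carrier genes, grouped by what they carry, with 95% limma intervals from 3 HAY and 4 CON calves. Black marks the 7 genes at an unadjusted p under 0.05, from SLC25A23 at 1.10 and SLC25A13 at 1.09 down to SLC25A30 at -0.76.

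The aspartate/glutamate carriers feed the malate-aspartate shuttle, which brings reducing equivalents of cytosolic NADH into the matrix. SLC25A13 (citrin) had the smallest p of the family. Its log2 signal was -2.02, -2.14 and -1.54 in HAY calves 9, 10 and 13, against -2.85, -3.22, -2.52 and -3.37 in CON calves 8, 11, 12 and 14. All HAY calves lay above all CON calves, with a log2 difference of 1.09 or 2.13-fold (SE 0.25, limma adjusted p = 0.210). SLC25A12 (aralar), the other carrier of this activity, had -1.46, -1.95 and -1.68 in HAY and -1.19, -1.69, -1.65 and -1.52 in CON. Its groups overlapped, and its difference of -0.18 (SE 0.18, limma adjusted p = 0.695) had a 95% interval from -0.61 to 0.24.

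Within each array the log2 ratio of SLC25A12 over SLC25A13 averaged 0.20 ± 0.35 in the 3 HAY calves and 1.48 ± 0.43 in the 4 CON calves (SD). Every HAY calf, between -0.14 and 0.56, lay below every CON calf, between 0.86 and 1.85. The difference of -1.27 had an exact two-sided permutation p of 0.0571 and, adjusted over the 9 pairs of related carriers tested, a p of 0.257. With normexp background correction the difference was -1.08 (exact permutation p = 0.0286, adjusted p = 0.129). With 35 splits the test cannot go below 0.0286, and 1 pair alone at that value cannot pass the adjustment over 9 pairs. The shuttle enzymes that act with these carriers, GOT1, GOT2, MDH1 and MDH2, differed by 0.13, 0.02, -0.14 and -0.005, and none was at an unadjusted p under 0.05. MDH1 was well above background on 3 arrays.

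**Figure D2:**
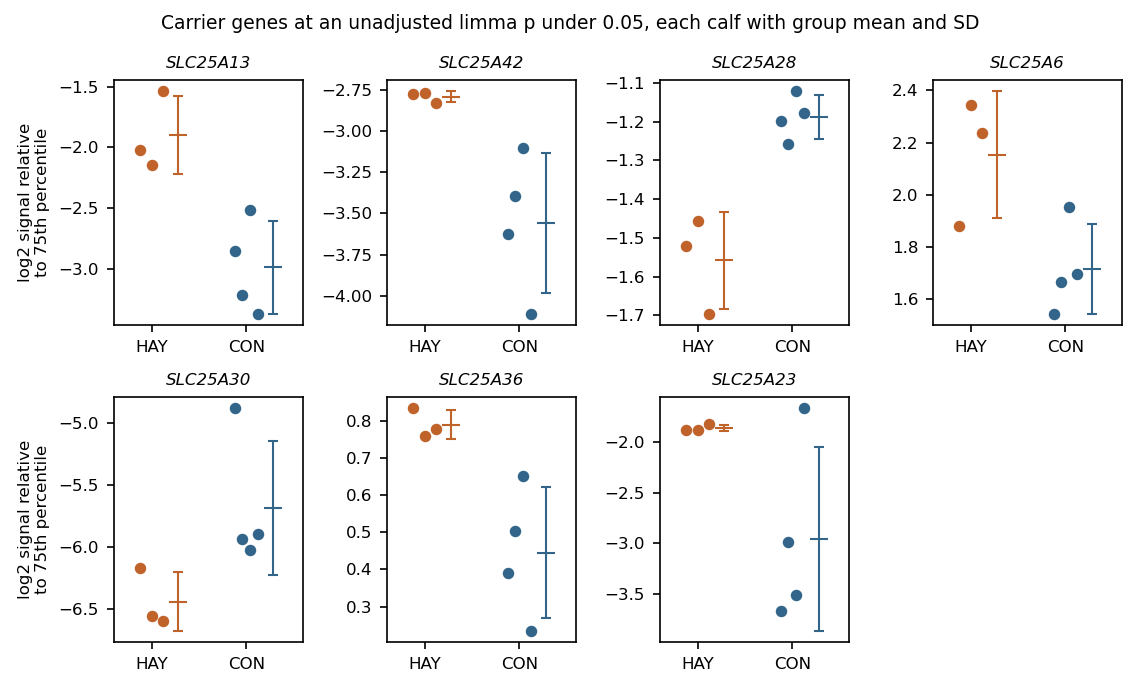
Log2 signal relative to the array's 75th percentile (vertical axis, its range set per panel) of the 7 carriers at an unadjusted limma p under 0.05, with 1 point per calf, HAY left and CON right, and the group mean with SD beside the points. SLC25A13, SLC25A42 and SLC25A36 lie higher and SLC25A28 and SLC25A30 lower in HAY without overlap, while SLC25A6 and SLC25A23 overlap.

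Carriers of nucleotides, phosphate and cofactors were the largest group, with 10 of 13 tested genes higher in HAY (all genes 54.5%) and 4 of them at an unadjusted p under 0.05 (all genes 6.78%). SLC25A42, which brings coenzyme A into the matrix, had -2.77, -2.77 and -2.83 in HAY calves 9, 10 and 13, against -3.63, -3.39, -3.10 and -4.11 in CON calves 8, 11, 12 and 14. The HAY calves lay close together and above all CON calves, with a log2 difference of 0.77 or 1.71-fold (SE 0.23, limma adjusted p = 0.264). SLC25A16, a relative of SLC25A42 linked to the matrix coenzyme A pool, differed by -0.15 (SE 0.20), with overlapping groups. The within-array log2 ratio of SLC25A16 over SLC25A42 averaged 2.02 ± 0.18 in the 3 HAY calves and 2.94 ± 0.28 in the 4 CON calves (SD), without overlap. Its difference of -0.92 had an exact permutation p of 0.0571 (adjusted p = 0.257). SLC25A17, the coenzyme carrier of peroxisomes, differed by 0.15 (SE 0.13).

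The adenine nucleotide carriers exchange matrix ATP for cytosolic ADP. SLC25A6 (ANT3) had 1.88, 2.35 and 2.24 in HAY calves 9, 10 and 13, against 1.55, 1.67, 1.95 and 1.70 in CON calves 8, 11, 12 and 14. CON calf 12 lay above HAY calf 9, so the groups overlapped, and the log2 difference was 0.44 or 1.35-fold (SE 0.17, limma adjusted p = 0.325). SLC25A4 (ANT1), the form of heart and skeletal muscle, had 3.27, 3.42 and 3.47 in HAY and 3.07, 3.27, 3.25 and 3.66 in CON. CON calves 8 and 14 held the lowest and the highest value, and the difference was 0.07 (95% interval -0.32 to 0.47).

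SLC25A5 (ANT2), the form of dividing cells, had 1.05, 1.18 and 2.52 in HAY and 0.85, 0.49, 1.36 and 2.35 in CON. HAY calf 13 and CON calf 14 stood above the other 5 calves, and the difference of 0.32 (SE 0.52) turned to -0.15 without HAY calf 13. SLC25A31 (ANT4), known from the testis, differed by -0.05 (SE 0.17). Set against each other within the array, SLC25A4 over SLC25A6 differed by -0.36 (exact permutation p = 0.114, adjusted p = 0.257). SLC25A4 over SLC25A5 differed by -0.25 (exact permutation p = 0.657) and SLC25A5 over SLC25A6 by -0.12 (exact permutation p = 0.800).

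SLC25A3, which supplies phosphate for ATP synthesis, had 4.05, 4.02 and 4.00 in HAY and 3.93, 3.91, 4.11 and 4.07 in CON, a difference of 0.02 with a 95% interval from -0.26 to 0.31. Most ATP-magnesium/phosphate carriers, SLC25A23 among them, are switched by calcium. The probe named SLC25A23 carries an accession that RefSeq now gives to SLC25A41, a relative without the calcium-binding part. It had -1.88, -1.88 and -1.82 in HAY and -3.67, -2.99, -3.51 and -1.67 in CON. CON calf 14 lay above all HAY calves and the other 3 CON calves below them, and the log2 difference was 1.10 or 2.14-fold (SE 0.45, limma adjusted p = 0.347). SLC25A25, another ATP-magnesium/phosphate carrier, differed by 0.27 (SE 0.31) and turned to -0.03 without HAY calf 13.

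Pyrimidine nucleotides enter through SLC25A33 and SLC25A36. SLC25A36 had 0.83, 0.76 and 0.78 in HAY and 0.39, 0.50, 0.65 and 0.23 in CON. All HAY calves lay above all CON calves, with a log2 difference of 0.34 or 1.27-fold (SE 0.14, limma adjusted p = 0.344). SLC25A33 differed by 0.38 (SE 0.17, limma adjusted p = 0.369), and the ratio of SLC25A33 over SLC25A36 by 0.04 (exact permutation p = 0.629).

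**Figure D3:**
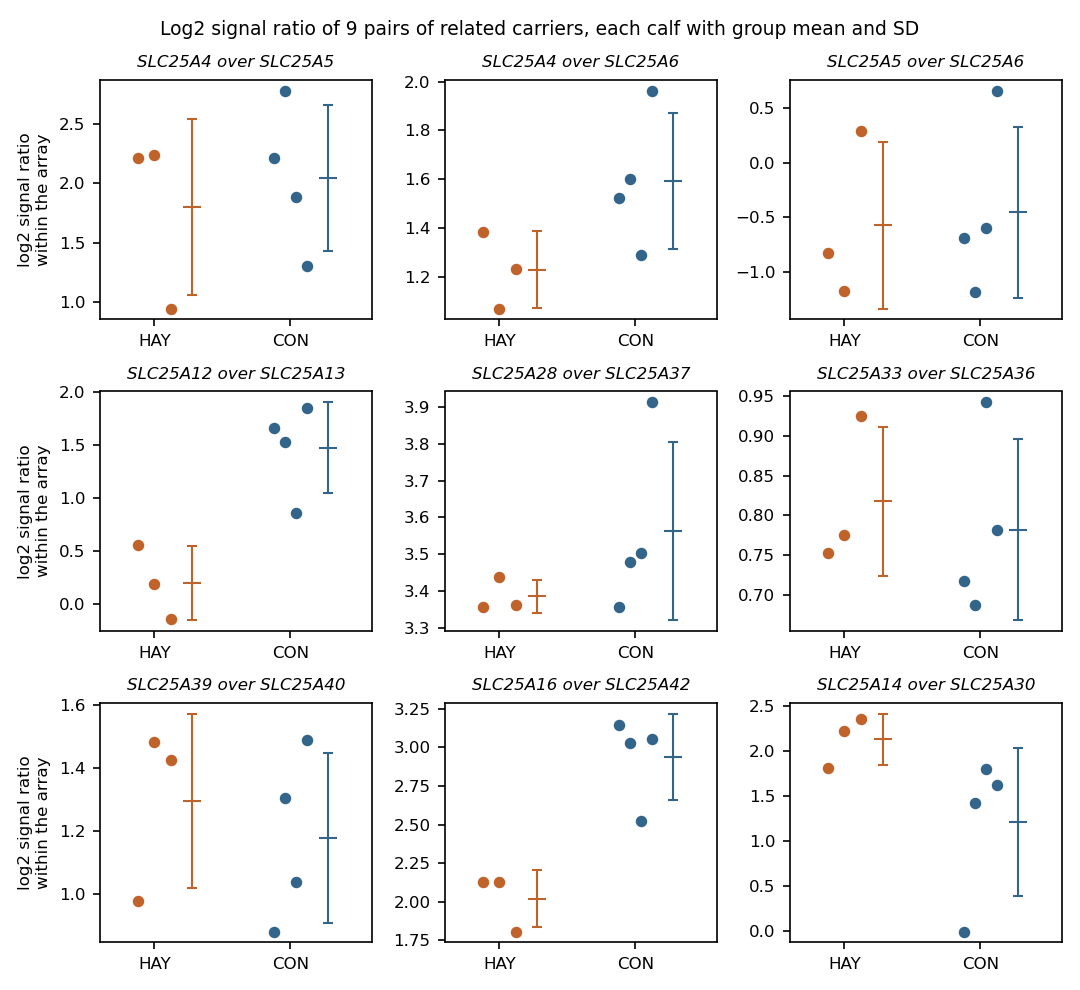
Within-array log2 signal ratio (vertical axis, its range set per panel) of 9 pairs of related carriers, with 1 point per calf, HAY left and CON right, and the group mean with SD beside the points. SLC25A12 over SLC25A13 and SLC25A16 over SLC25A42 lie lower and SLC25A14 over SLC25A30 higher in HAY without overlap. No pair passed after adjustment over the 9 pairs, which 1 pair alone cannot do even at the lowest p of the test.

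Carriers of di- and tricarboxylates link the citric acid cycle with the cytosol. Of the 5 tested, 4 had higher values in HAY (all genes 54.5%). None of them was at an unadjusted p under 0.05, though SLC25A34 and SLC25A35 were with the slide column as a block. SLC25A1, the citrate carrier that supplies cytosolic acetyl-CoA for lipid synthesis, had 1.31, 1.20 and 1.61 in HAY and 0.59, 0.92, 1.20 and 1.20 in CON. HAY calf 10 lay level with CON calves 12 and 14, and the difference was 0.40 (SE 0.20, limma adjusted p = 0.408). SLC25A11, the oxoglutarate/malate carrier of the malate-aspartate shuttle, had 0.38, 0.72 and 1.13 in HAY and 0.37, 0.70, 0.97 and 1.04 in CON. Its difference was -0.03 (95% interval -0.58 to 0.52). The orphan carriers SLC25A34 and SLC25A35 differed by 0.58 (SE 0.35) and 0.55 (SE 0.28). SLC25A34 differed by 0.29 without CON calf 14, and SLC25A35 by 0.25 without HAY calf 13 and by 0.07 with normexp background correction. SLC25A21, the oxodicarboxylate carrier, was dim. It was well above background on 2 of 3 HAY and 2 of 4 CON arrays and differed by 0.34 (SE 0.50), or by -0.03 with normexp.

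Beyond the carriers, the enzymes around citrate export gave 1 of 4 genes at an unadjusted p under 0.05 (all genes 13.9%). This was ME1, the cytosolic malic enzyme that makes NADPH, with a log2 difference of 0.59 (SE 0.18) and no overlap between groups. ACLY, which splits exported citrate, differed by 0.44 (SE 0.23), ACACA by -0.12 and FASN by 0.03. MPC1, a subunit of the pyruvate carrier outside the SLC25 family, differed by 0.57 (SE 0.19, limma adjusted p = 0.292) with overlapping groups. MPC2 was not matched.

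Among the carriers of amino acids and carnitine, 8 of 11 tested had higher values in HAY (all genes 54.5%). Of these 11, SLC25A13 alone was at an unadjusted p under 0.05 (all genes 13.9%). SLC25A20, which exchanges acylcarnitine for carnitine on the way to fatty acid oxidation, had 1.86, 1.73 and 2.20 in HAY and 1.47, 1.33, 1.62 and 1.82 in CON. CON calf 14 reached above HAY calf 10, and the difference was 0.37 (SE 0.18, limma adjusted p = 0.405). Of its partner enzymes, CPT1A differed by 0.34, CPT1B by 0.36, CPT2 by 0.10, CRAT by 0.32 and CPT1C by -0.13, none at an unadjusted p under 0.05.

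SLC25A29, a carrier of basic amino acids, differed by 0.43 (SE 0.41), and by -0.05 without HAY calf 13. The S-adenosylmethionine carrier SLC25A26 differed by 0.21, the glutamate carrier SLC25A22 by 0.19, and SLC25A45 by 0.27, or by 0.017 without HAY calf 10. SLC25A15, the ornithine carrier of the urea cycle, differed by 0.12, and SLC25A44, a carrier of branched-chain amino acids, by 0.06. SLC25A38, the glycine carrier of heme synthesis, and SLC25A47 differed by -0.03 and -0.11. Each of these had overlapping groups and a 95% interval that included 0. SLC25A2, another ornithine carrier, was well above background on 1 HAY array and on no CON array, and SLC25A48 on none of the 7, so neither was tested.

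Iron enters the matrix through the mitoferrins. SLC25A28 (mitoferrin-2), the broadly expressed form, had -1.52, -1.46 and -1.70 in HAY calves 9, 10 and 13, against -1.20, -1.26, -1.12 and -1.18 in CON calves 8, 11, 12 and 14. All HAY calves lay below all CON calves, with a log2 difference of -0.37, which is 1.29-fold lower (SE 0.12, limma adjusted p = 0.289). SLC25A37 (mitoferrin-1), known from red cell precursors, had -4.88, -4.89 and -5.06 in HAY and -4.56, -4.74, -4.62 and -5.09 in CON. CON calf 14 was the lowest of all, and the difference was -0.19 (SE 0.16, limma adjusted p = 0.640). The accession of this probe now belongs to a RefSeq locus that lists SLC25A37 as a synonym. The ratio of SLC25A28 over SLC25A37 differed by -0.18 (exact permutation p = 0.257). With normexp this ratio differed by -0.25 without overlap (exact permutation p = 0.0286, adjusted p = 0.129). The erythroid genes ALAS2 and SLC4A1 were well above background on 1 and on 0 arrays, while the haemoglobin genes HBA and HBB were so on 7 and 6.

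The glutathione carriers SLC25A39 and SLC25A40 differed by 0.25 (SE 0.18) and 0.13 (SE 0.14). Their ratio differed by 0.12 (exact permutation p = 0.60). Among genes of heme and iron-sulfur cluster synthesis, FECH differed by 0.16, ALAS1 by 0.03, ABCB10 by -0.02 and ISCU by -0.27. None of these was at an unadjusted p under 0.05.

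The uncoupling-like carriers are relatives of the brown fat uncoupling protein. SLC25A30 (KMCP1) had -6.17, -6.56 and -6.60 in HAY calves 9, 10 and 13, against -4.88, -5.93, -6.03 and -5.90 in CON calves 8, 11, 12 and 14. All HAY calves lay below all CON calves, of which calf 8 stood highest, with a log2 difference of -0.76, which is 1.69-fold lower (SE 0.30, limma adjusted p = 0.329). The difference was -0.49 without CON calf 8 and -0.30 with normexp. SLC25A14 (UCP5), a relative of it, differed by 0.16 (SE 0.18), and by -0.005 with normexp. The log2 ratio of SLC25A14 over SLC25A30 averaged 2.13 ± 0.28 in the 3 HAY calves and 1.21 ± 0.82 in the 4 CON calves (SD), a difference of 0.92 (exact permutation p = 0.114, adjusted p = 0.257), or of 0.51 without CON calf 8 and 0.30 with normexp. In this ratio HAY calf 9, at 1.814, lay only just above CON calf 12, at 1.807. With normexp and with quantile normalization the groups overlapped in it. SLC25A27 (UCP4), known from the brain, differed by -0.23 (SE 0.35), and SLC25A46, an outer membrane member that acts in mitochondrial shape, by 0.26 (SE 0.20), or by 0.04 with normexp.

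Some relatives lay outside the naming rule. Of 4 tested genes in the list of carriers under other names, UCP2, UCP3, MTCH1 and MTCH2 differed by -0.21, -0.09, 0.25 and 0.06, and none was at an unadjusted p under 0.05. UCP1 was well above background on 2 arrays and was not tested. A further 3 probes carry accessions that RefSeq now names SLC25A24, SLC25A51 and SLC25A53, and were added after their values were seen. SLC25A53 differed by 0.83 (SE 0.31, limma adjusted p = 0.311) with overlapping groups, or by 0.46 with normexp, SLC25A24 by -0.11 and SLC25A51, the NAD carrier, by -0.05.

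Carriers reach the inner membrane through TOMM and small TIMM proteins, and metabolites reach them through the VDAC channels of the outer membrane. None of the 10 tested import genes was at an unadjusted p under 0.05, and their median difference was 0.01. VDAC1 differed by 0.30 (SE 0.14) without overlap, and VDAC2 and VDAC3 by -0.02 and -0.09. The sideroflexins are a separate family of mitochondrial carriers, some of which carry serine. SFXN5 differed by 0.53 (SE 0.16, limma adjusted p = 0.267) and SFXN3 by -0.70 (SE 0.22, limma adjusted p = 0.273), both without overlap. SFXN1, SFXN2 and SFXN4 differed by 0.68 (SE 0.35), -0.22 and -0.23. Around the calcium uniporter, MCUB, its inhibitory subunit, differed by -1.66 (SE 0.32, limma adjusted p = 0.166) without overlap. MCU, MICU2, MICU3 and LETM1 differed by 0.12, -0.05, -0.25 and 0.38. Over the 10 partner lists, 48 genes were tested, 3 with higher and 2 with lower values in HAY at an unadjusted p under 0.05, where all genes gave 6.78% and 7.17%. Their median difference was 0.02, and none passed the adjustment over all genes with limma. Groups did not overlap in 4 of the 48 with higher and 3 with lower values in HAY, where all genes gave 6.53% and 5.3%.

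Some carriers varied more between calves of 1 group than between the groups. SLC25A5, SLC25A25 and SLC25A29 were highest in HAY calf 13 and in CON calf 14. SLC25A25 had -2.44, -2.19 and -1.43 in HAY calves 9, 10 and 13, against -2.40, -2.41, -2.63 and -1.70 in CON calves 8, 11, 12 and 14. SLC25A29 had -1.09, -0.73 and 0.54 in HAY, against -1.06, -1.08, -1.05 and -0.26 in CON. These 2 calves shared column 4 of the slide, in its 2 rows. Among slide columns 2 to 4, which hold a calf of each group, column 4 held the highest calf of both groups in 12 of 37 carriers (32.4%) and in 19.3% of all genes. Column 3 did so in 5 carriers (13.5%, all genes 11.3%) and column 2 in 1 (2.70%, all genes 14.6%). The lowest calf of both groups lay in column 4 in 6 carriers (16.2%, all genes 26.0%). It lay in column 3 in 1 (2.70%, all genes 6.21%) and in column 2 in 6 (16.2%, all genes 12.6%). The part of the slide position in these values was not tested, beyond the fit with the column as a block, which gave differences of 0.18 for SLC25A5, 0.23 for SLC25A25 and 0.37 for SLC25A29. CON calf 8, alone in column 1, adds nothing to a difference in that fit. Of the 7 carriers at an unadjusted p under 0.05, SLC25A6, SLC25A23, SLC25A28 and SLC25A36 were no longer so with the block, while SLC25A13, SLC25A42 and SLC25A30 were. With the block the differences were 0.38 for SLC25A6, 0.86 for SLC25A23, -0.37 for SLC25A28 and 0.33 for SLC25A36. That fit also estimates the columns, which leaves fewer degrees of freedom for the spread between calves.

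**Figure D4:**
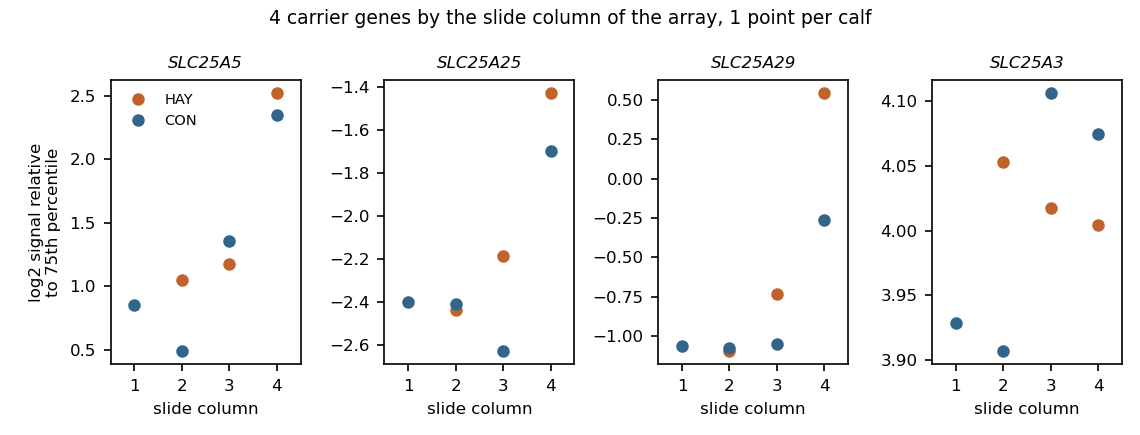
Log2 signal relative to the array's 75th percentile (vertical axis, its range set per panel) of SLC25A5, SLC25A25, SLC25A29 and, for comparison, SLC25A3 against the slide column of the array, with 1 point per calf and HAY and CON by colour. In the first 3 panels both calves of column 4 lie highest, at 2.52 and 2.35 for SLC25A5, and the SLC25A3 panel covers a range of 0.20.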

How the data were processed

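Per the labels' protocols, 500 ng of total RNA of each calf was labelled with cyanine 3 for 1 array. The authors deposited scanner files of spot intensity (linear scale, Agilent's processed signal, made with Agilent Feature Extraction 9.5 as the submitters' processing notes name it), not yet scaled across the series. They also deposited a log2 table, each column of which correlated at 1.00 (Pearson) with the values used here, so direction and scale match and genes were not centred. Medians of its columns ran from -3.20 to -3.12 for HAY and from -3.11 to -3.08 for CON.

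Control and outlier spots were dropped, log2 signals of repeated spots averaged, and the array's 75th percentile subtracted. A gene with several probes took the brightest. Groups were compared with limma 3.58.1 in R 4.3.3, with Benjamini-Hochberg adjustment over all genes tested and a threshold of 0.05; the fit was tested on simulated data. Within-array ratios used an exact two-sided permutation test. Of the 39 carriers, 34 matched RefSeq accessions (ARS-UCD2.0, names only), 2 under another symbol now. Some genes are not reported here. Of the carriers, those at an unadjusted p under 0.05 (at most 15) and those of fixed metabolic interest are given calf by calf. SLC25A10, SLC25A32 and SLC25A43 were not analysed here. The members, lists and roles were chosen with earlier results of these data known. All arrays lay on 1 slide, read in 1 scan. Nothing says more of the replicates than their calf numbers. The number of arrays limits the precision.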

Additional observations from a re-analysis of the deposited data

Results flagged for a closer look

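In 3 of 37 carriers the highest of the 4 CON calves stood far from the others, by most of the group's range. Only the CON group of each carrier was screened in this way, not the 3 HAY calves. Chance flags about 1 in 20 groups. SLC25A29 stood at -0.26 in CON calf 14, with the next calf at -1.05. SLC25A30 stood at -4.88 in CON calf 8, with the next at -5.90, and without that calf its log2 difference between HAY and CON was -0.49. SLC25A38 stood at -0.19 in CON calf 8, with the next at -0.50, and its difference without that calf was 0.05.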

How the results depend on the processing

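No paired analysis by replicate number was possible because the numbers are those of the calves and the groups share none. Slide columns 2 to 4 each hold 1 HAY and 1 CON calf, and the fit with the column as a block compares within them. Under 15 alternatives, 23 of the 37 carriers kept the sign of their difference and 14 did not. SLC25A13 and SLC25A42 stayed at an unadjusted limma p under 0.05 in all 15, with differences from 0.87 to 1.25 and from 0.57 to 0.92. SLC25A28 did so in 13, SLC25A30 in 12, SLC25A6 in 9, and SLC25A23 and SLC25A36 in 8 each. Among the 15, the deposited log2 table and the mean of a gene's probes left a carrier's values nearly or wholly the same. So did dropping the filter on dim probes and requiring a signal well above background on all 7 arrays. Under these alternatives a kept p or sign was close to fixed in advance. The cause of the changes below was not tested.

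With normexp, 1 carrier, SLC25A28, was lower in HAY at an unadjusted p under 0.05. SLC25A30 was lost and SLC25A33, higher in HAY, was gained. Differences turned to -0.0054 for SLC25A14, -0.033 for SLC25A21, 0.013 for SLC25A38 and -0.060 for SLC25A44. With median centring they turned to 0.037 for SLC25A11, 0.011 for SLC25A31 and 0.036 for SLC25A38. With quantile normalization they turned to -0.086 for SLC25A3, -0.039 for SLC25A4 and 0.013 for SLC25A31, the ratio of SLC25A33 over SLC25A36 to -0.0042, and 4 genes of all passed the adjusted threshold. With the slide column as a block, 2 genes passed, and 4 carriers were higher and 1 lower at an unadjusted p under 0.05. SLC25A6, SLC25A23, SLC25A28 and SLC25A36 were lost and SLC25A34 and SLC25A35 gained, and differences turned to -0.0042 for SLC25A3, -0.0069 for SLC25A4, 0.0021 for SLC25A31 and 0.051 for SLC25A38. The lost carriers kept the sign of their differences, in a fit with fewer degrees of freedom for the spread. Of all genes at an unadjusted p under 0.05, 852 were higher and 901 lower in HAY, against 1237 and 774 after median centring. Quantile normalization gave 1052 higher and 841 lower, normexp 718 and 1007, and the block 664 and 1145.

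Leaving out 1 calf at a time, from 1 to 21 genes passed the adjusted threshold (leaving out CON calf 14 gave 21, HAY calf 9 gave 7, CON calf 8 gave 4 and HAY calf 13 gave 2) and from 982 (without HAY calf 13) to 2342 (without HAY calf 9) were at an unadjusted p under 0.05, with 987 without HAY calf 10. Carriers at that p ran from 2 to 5 higher in HAY (2 without HAY calf 13, CON calf 8 or CON calf 11, 3 without HAY calf 9 or 10) and from 0 to 2 lower (0 without HAY calf 13, 1 without HAY calf 10). Differences ran from -0.011 to 0.055 for SLC25A3, from -0.0069 to 0.19 for SLC25A4, from -0.15 to 0.68 for SLC25A5, from -0.22 to 0.16 for SLC25A11, from -0.032 to 0.32 for SLC25A15, from -0.022 to 0.85 for SLC25A21, from -0.027 to 0.48 for SLC25A25, from -0.48 to 0.085 for SLC25A27, from -0.052 to 0.77 for SLC25A29, from -0.20 to 0.060 for SLC25A31, from -0.086 to 0.062 for SLC25A38 and from -0.22 to 0.021 for SLC25A47. Without a change of sign, they ran from 0.29 to 0.82 for SLC25A34, from 0.25 to 0.78 for SLC25A35 and from 0.017 to 0.44 for SLC25A45. Ratios ran from -0.49 to 0.18 for SLC25A4 over SLC25A5, from -0.54 to 0.25 for SLC25A5 over SLC25A6 and from -0.018 to 0.089 for SLC25A33 over SLC25A36.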
